A study of Mus musculus with 2 samples.

Results

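Drosha-independent microRNAs were examined in mouse midbrain at embryonic day 12.5 (E12.5). The 5 members are Mir320, Mir484, Mir877, Mir702 and Mir1981, whose precursors are capped transcripts or short introns (mirtrons) known to bypass Drosha. They were found by symbol in the GENCODE annotation, and all 5 were among the 1973 microRNA genes listed in the counts. Small RNA of the size range below 30 nucleotides was sequenced from 2 midbrain libraries of strain B6NCrl, labelled biological replicates 1 and 2. Replicate 1 pooled the midbrains of 120 embryos and replicate 2 those of 88, with males and females mixed in each, so a value is an average over many embryos and over all cell types of the tissue. The counts assigned to microRNA genes numbered 4629302 in replicate 1 and 2805487 in replicate 2. No treatment, genotype or other tissue was compared, no library lacked Drosha, and the Drosha independence of the members is background that these data do not test.

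Most microRNAs are cut out of a long primary transcript by the nuclear Microprocessor, in which the RNase Drosha works with Dgcr8, and the hairpin is then exported and cut by Dicer. A mirtron takes another way in: the spliceosome excises a short intron, the lariat is debranched, and the intron folds into a hairpin that Dicer can use. Precursors of the Mir320 and Mir484 type start at the transcription start site, carry the cap of the RNA polymerase II transcript and go to Dicer without a Drosha cut. Both routes meet the common pathway at Dicer, so the mature products appear in small RNA libraries together with all other microRNAs.

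The sequences of 4 members were found in the RefSeq table on GRCm38.p6, and Mir320 was not matched. The hairpins are shown first because the mirtron is defined by where its ends lie. In the following hairpins, read 5′ to 3′, capitals mark the first and last dinucleotide of the host intron where the hairpin reaches them, and Mir1224, a mirtron outside the 5 members, is given for comparison.
Mir877 hairpin: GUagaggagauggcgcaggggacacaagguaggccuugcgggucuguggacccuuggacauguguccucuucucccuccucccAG
Mir1981 hairpin: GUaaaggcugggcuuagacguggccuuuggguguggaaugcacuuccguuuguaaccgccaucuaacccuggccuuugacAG
Mir702 hairpin: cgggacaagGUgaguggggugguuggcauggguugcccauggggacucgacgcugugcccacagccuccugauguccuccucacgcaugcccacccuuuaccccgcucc
Mir1224 hairpin: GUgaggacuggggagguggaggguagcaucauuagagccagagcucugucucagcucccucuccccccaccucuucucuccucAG

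Mir877 (ENSMUSG00000077931.1) lies on chromosome 17 from 35960730 to 35960814 on the minus strand of mm10 and fills an 85-base intron of Abcf1, a ribosome-associated ATP-binding cassette protein, from its first base to its last. Mir1981 (ENSMUSG00000088559.1), on chromosome 1 from 184822407 to 184822488 on the minus strand, fills an 82-base intron of Marc2, which encodes a mitochondrial amidoxime-reducing enzyme, in the same way. Both hairpins thus open with the splice donor dinucleotide GU and close with the acceptor dinucleotide AG. Mir702 (ENSMUSG00000076240.1), on chromosome 5 from 136991433 to 136991541 on the plus strand, lies over a 102-base intron of Plod3, a collagen-modifying lysyl hydroxylase. Its annotated hairpin takes in the last 9 bases of the upstream exon, so the donor GU begins at base 10, and it stops 2 bases before the end of the intron. These are introns 12 of 22 in Abcf1, 5 of 7 in Marc2 and 13 of 18 in Plod3, counted in the protein-coding transcript with the most introns.

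Mir484 and Mir320 have another gene structure. Mir484 (ENSMUSG00000070074.1) lies on chromosome 16 from 14159626 to 14159692 on the plus strand, and Mir320 (ENSMUSG00000065528.1) on chromosome 14 from 70443510 to 70443591 on the plus strand. Neither lies within an annotated gene on its own strand. Each sits just outside the start of a gene transcribed in the opposite direction: Mir320 begins 63 bases from a transcript start of Polr3d, a subunit of RNA polymerase III, and Mir484 begins 359 bases from a transcript start of Marf1, a regulator of oocyte meiosis. Of the 1894 listed genes found in the annotation, 63 have an opposite-strand transcript start within 500 bases. On their own strand the nearest annotated start is 13966 bases away for Mir320 (Phyhip) and 3649 bases away for Mir484 (Nde1), so no annotated transcript on that strand begins at either hairpin.

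**Figure D1:**
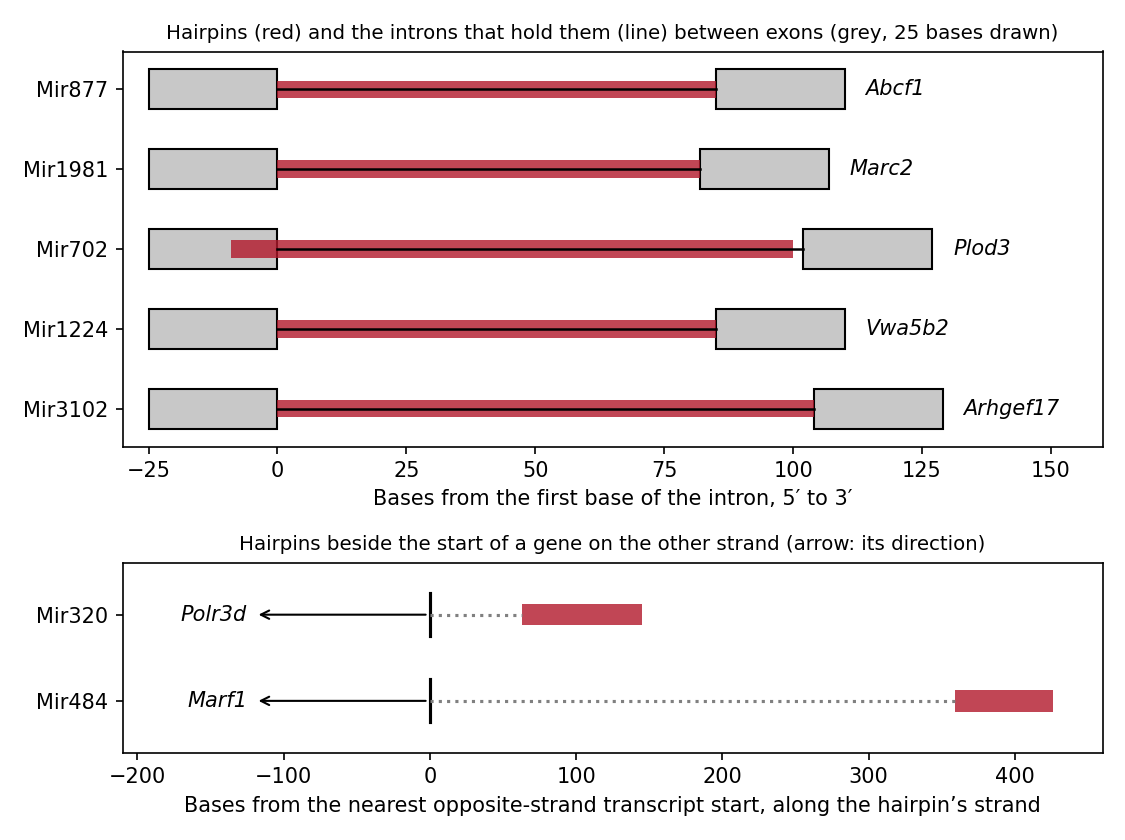
Position of each hairpin (red) in bases, with the host intron as a line between its exons (upper panel) and with the nearest transcript start on the other strand as a vertical tick (lower panel). Mir877, Mir1981, Mir1224 and Mir3102 coincide with their introns, Mir702 is shifted by 9 bases at its 5′ end, and Mir320 and Mir484 lie 63 and 359 bases outside the start of Polr3d and Marf1.

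The mature microRNAs follow the same ends. They are shown because a 5′ product that begins at a splice donor carries donor sequence into its seed, the bases 2 to 8 that pair with targets. Capitals mark the seed.
miR-877-5p: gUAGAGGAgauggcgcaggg
miR-1981-5p: gUAAAGGCugggcuuagacguggc
miR-702-5p: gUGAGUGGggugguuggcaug
miR-3102-5p: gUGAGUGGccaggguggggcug
miR-1224-5p: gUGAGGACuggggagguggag
miR-877-3p: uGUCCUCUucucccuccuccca
miR-1981-3p: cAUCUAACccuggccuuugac
miR-702-3p: uGCCCACCcuuuaccccgcucc
miR-484: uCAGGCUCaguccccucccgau

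All 3 mirtron members have a 5′ product whose first base is the first base of the intron, also Mir702, whose hairpin starts earlier. Their 3′ products end 1 base (miR-877-3p) or 2 bases (miR-1981-3p and miR-702-3p) before the end of the intron. The 7 mature forms of the 4 members with a sequence carry 7 different seeds. Only miR-702-5p shares its seed, UGAGUGG, with another gene's mature form in the RefSeq table, miR-3102-5p of the mirtron Mir3102, which lies in Arhgef17. The counts are per gene and do not separate the arms, so they do not say which of these forms was sequenced.

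The same arrangement was counted over all listed genes by position alone. A hairpin was called intron-spanning when both of its ends lay within 10 bases of the ends of 1 intron on its own strand. There were 29 such genes, Mir877, Mir702 and Mir1981 among them, and 22 of the 29 matched their intron at both ends to the base. Their introns measured 67 to 137 bases with a median of 85. Mature forms were given for 25 of them. Leaving out a second, inner pair of products of Mir3102, which touches neither end of its intron, they had 25 products named 5p, of which 18 began at the first base of the intron and 17 began with GU, while 22 of 701 other 5p forms in the table (3.14%) began with GU. Of their 23 products named 3p, with the inner one of Mir3102 left out, 21 ended within 2 bases of the intron's end. The class was chosen by hairpin ends that lie on intron ends, and introns open with the donor GU as a rule. These end positions and the share with GU thus follow largely from that choice.

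Mir484 was the most abundant of the 5 microRNAs. It had 14984 counts in replicate 1 and 7070 in replicate 2, or 3237 and 2520 counts per 1000000 counts assigned to microRNA genes (CPM), with 95% Wilson intervals of 3185 to 3289 and 2462 to 2579 CPM. At a mean of 2878 ± 507 CPM (SD, n = 2) it ranked 62 among all listed genes. Its hairpin, with the mature part in capitals, shows a product from the 5′ arm that begins 4 bases from the hairpin's end.
Mir484 hairpin: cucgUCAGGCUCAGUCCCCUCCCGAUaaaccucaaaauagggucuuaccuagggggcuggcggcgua

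Mir320, whose known product comes from the 3′ arm, had 3050 and 1918 counts, or 659 CPM in replicate 1 and 684 CPM in replicate 2, a mean of 671 ± 17.5 CPM (SD, n = 2) and rank 120. A microRNA read covers the whole mature molecule, so counts were not divided by length.

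The mirtrons stood lower. Mir877 had 1073 and 554 counts, 232 CPM in replicate 1 and 197 CPM in replicate 2, with a mean of 215 ± 24.3 CPM (SD, n = 2) and rank 177. Mir702 had 687 and 438 counts, 148 and 156 CPM, with a mean of 152 ± 5.46 CPM and rank 188. Mir1981 had 563 and 299 counts, 122 and 107 CPM, with a mean of 114 ± 10.6 CPM and rank 213. The counting intervals of the last were 112 to 132 CPM in replicate 1 and 95.2 to 119 CPM in replicate 2, and they overlap. All 5 members passed the minimum of 10 counts in both libraries that made a gene quantified, as did 380 of the 1973 listed genes.

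The order was the same in both libraries, Mir484, Mir320, Mir877, Mir702 and Mir1981 from high to low. No neighbours in that order had overlapping ranges over the 2 libraries, although Mir877 and Mir702 were close, 1.56-fold apart in replicate 1 and 1.26-fold in replicate 2. Mir702 exceeded Mir1981 1.22-fold in replicate 1 and 1.46-fold in replicate 2. Mir484 stood 26.6-fold above Mir1981 in replicate 1 and 23.6-fold in replicate 2. Mir484 alone made up 73.6% and 68.8% of the members' summed CPM, and Mir320 15.0% and 18.7%. Together the 5 genes held 0.440% of the assigned counts in replicate 1 and 0.366% in replicate 2, a sum of 4031 ± 519 CPM (SD, n = 2). Without Mir484 the sum was 1152 ± 11.9 CPM.

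**Figure D2:**
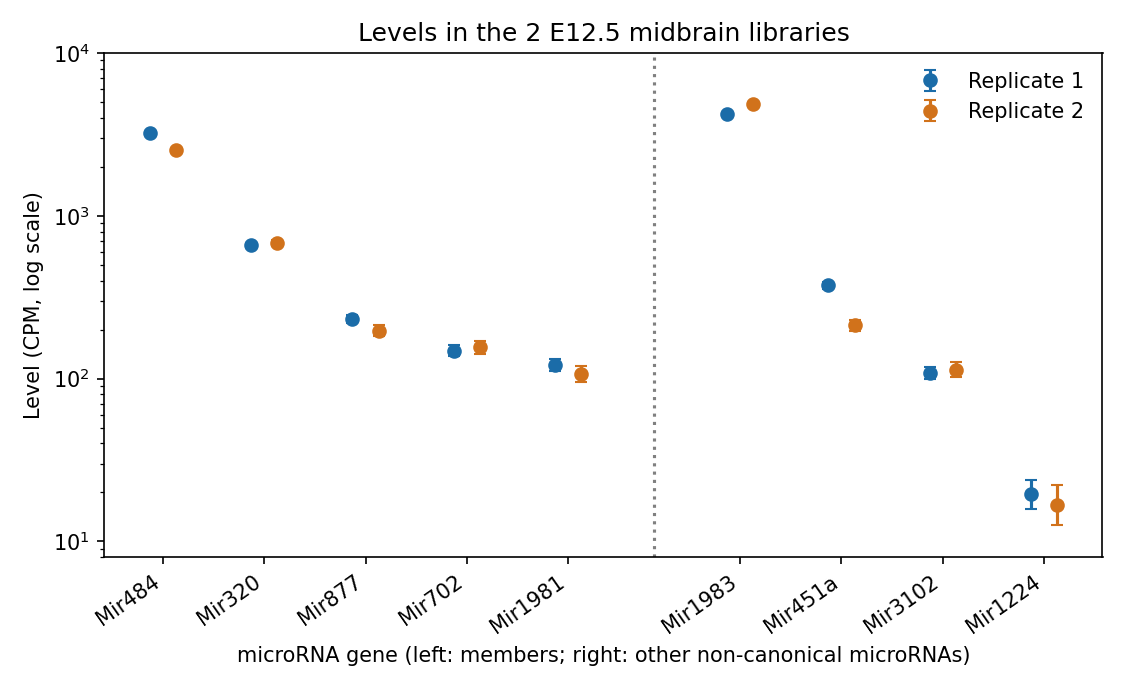
Level in CPM on a log axis of the 5 members and, right of the dotted line, of 4 other microRNAs with a non-canonical origin, with 1 point per library and 95% Wilson intervals as bars. Mir484 stands at 3237 and 2520 CPM, Mir320 near 671 CPM and the 3 mirtrons between 107 and 232 CPM.

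Among all intron-spanning hairpins the 3 mirtron members were near the top. Of the 29 genes, 20 had a read in both libraries (69.0%, against 32.6% of all listed genes). Of the 29, 8 were quantified (27.6%, against 19.3% of all listed genes). Without the 3 members, which were chosen with their values known, 17 of 26 had a read in both libraries (65.4%). Of those 26, 5 were quantified (19.2%), about the share of all genes. The median over the 29 was 1.76 CPM, and over all 1973 listed genes it was 0. The highest were Mir877, Mir702, Mir6944 in an intron of Dbn1 (150 ± 10.9 CPM, SD, n = 2), Mir1981 and Mir3102 in an intron of Arhgef17 (111 ± 3.72 CPM). Dbn1 encodes drebrin, an actin-binding protein of neurons. No gene of the class reached 1000 CPM, a level that 98 of all listed genes (4.97%) reached, and 5 reached 100 CPM (17.2%, against 11.2% of all). Without the members 2 of 26 reached 100 CPM (7.69%), a share below that of all genes. The class summed to 795 ± 41.2 CPM (SD, n = 2), of which the 26 genes other than the members gave 314 ± 11.7 CPM. The median of those 26 was 0.878 CPM, about the level of 3 counts, which were worth 0.648 CPM in replicate 1 and 1.07 CPM in replicate 2.

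**Figure D3:**
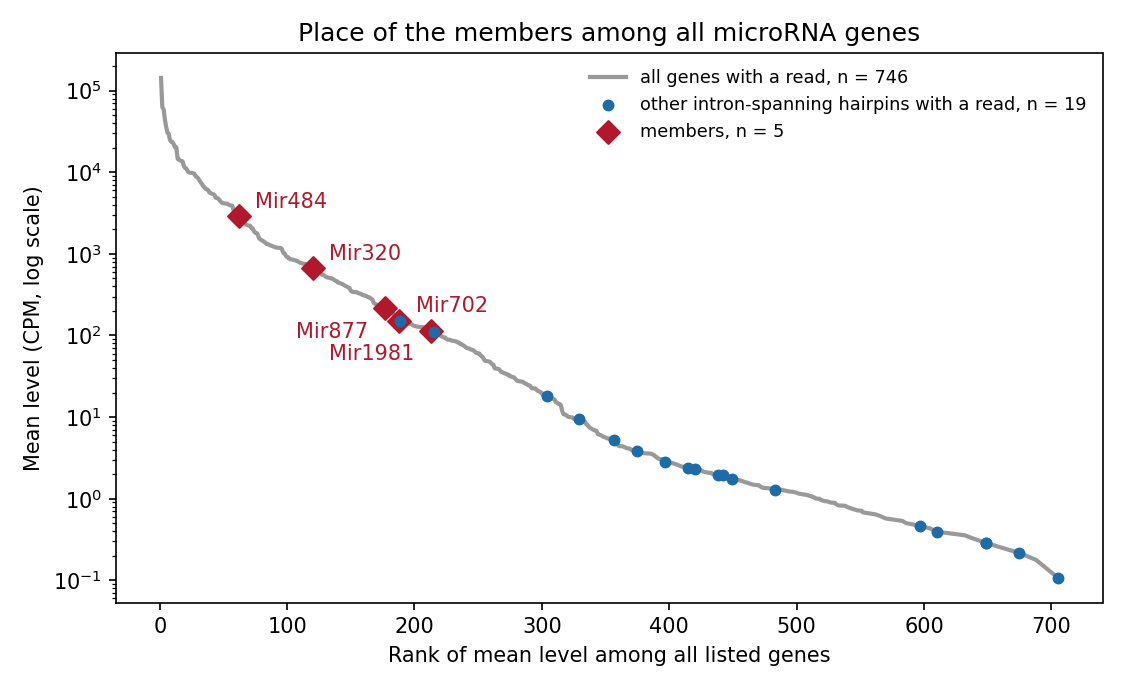
Mean level in CPM on a log axis against the rank of the gene for the 746 genes with a read, with the members as red diamonds and the other 19 intron-spanning hairpins with a read as blue points. The members take ranks 62 to 213, and among the other intron-spanning hairpins Mir6944 and Mir3102 lie beside Mir702 and Mir1981 while the rest fall below 20 CPM.

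Other microRNAs known to skip a step of the common pathway spanned a wider range than the members. Of the 6 on a fixed list, Mir1224, Mir3102, Mir1983 and Mir451a were found in the counts, and values for Mir664 and Mir1839, which derive from small nucleolar RNAs, were not matched by identifier. Mir1983, which derives from a tRNA, had 4207 CPM in replicate 1 and 4863 CPM in replicate 2, above Mir484 in both. Counts per gene do not separate a Mir1983 microRNA from other fragments of that locus. Mir451a, which needs Drosha but is matured by Ago2 in place of Dicer and is known from red blood cells, had 373 and 212 CPM. The mirtron Mir1224, in an intron of Vwa5b2, had 19.4 and 16.8 CPM from 90 and 47 counts, below every mirtron member in both libraries. Mir3102 had 108 and 114 CPM, within the range of Mir1981 in its level.

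Genes with a transcript start on their own strand near the hairpin were counted as well, since a capped precursor begins at such a start. Within 100 bases of the hairpin's 5′ end 99 listed genes had an annotated start, and no member was among them. The highest were Mir126a, Mir30d, Mir125a, Mir140 and Mir181a-1, from 24839 ± 1986 down to 3915 ± 25.6 CPM (SD, n = 2). The start lay at or before the hairpin's 5′ end in 37 of the 99 and inside or beyond the hairpin in 62, all 5 named genes among them. Counting only starts at or before the hairpin, a choice made after seeing the data, the sum of the class fell from 61254 to 6771 CPM.

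The microRNAs whose level was nearest to each member over the 2 libraries, by the distance in log2(CPM + 1), were found for each. For Mir484 they were Mir708 (3063 and 2484 CPM, distance 0.08) and Mir363 (2737 and 2278 CPM, 0.28). For Mir320 they were Mir186 (distance 0.06) and Mir540 (0.11), for Mir877 Mir874 (0.09) and Mir138-2 (0.10), and for Mir702 Mir329 (0.08) and Mir6944 (0.16). Mir377 (0.09) and Mir3102 (0.19) were nearest to Mir1981. With 2 libraries this likeness is one of level, and 2 of these genes, Mir6944 and Mir3102, are themselves intron-spanning.

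Between the libraries, Mir484 and Mir877 were lower in replicate 2, and the other 3 members were not called. A two-sided Fisher's exact test set each gene's count against the rest of its library, with Benjamini-Hochberg adjustment over the 380 quantified genes. This test compares these 2 libraries with counting noise and not any conditions. By it 2 of the 5 members were called, both lower in replicate 2, while 54.2% of the quantified genes were called, made up of 27.1% lower in replicate 2 and 27.1% higher. A count of 2 in 5 is thus near the background.

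For Mir484 the log2 ratio of replicate 2 over replicate 1 was -0.36 ± 0.02 (counting SE), a 1.28-fold difference, with an adjusted p of 2.07e-68 by the exact test. For Mir877 it was -0.23 ± 0.08, a 1.17-fold difference, with an adjusted p of 0.00475 by the exact test. The high count of Mir484 gives it a small counting error, and 118 of the 380 genes had a larger ratio in size. Mir320 (0.05 ± 0.04, exact test adjusted p = 0.306) and Mir702 (0.07 ± 0.09, adjusted p = 0.533) had values slightly higher in replicate 2. Mir1981 had a log2 ratio of -0.19 ± 0.10 (exact test adjusted p = 0.114), and with DESeq2 size factors in place of plain totals it was called, at -0.23 with an adjusted p of 0.0484 by the exact test. Under the other 3 alternatives its adjusted p lay between 0.0891 and 0.200. The median log2 ratio of the members was -0.19 against 0.04 over all quantified genes. Of the capped members, Mir484 was called and Mir320 was not, and the difference between their ratios was not tested.

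**Figure D4:**
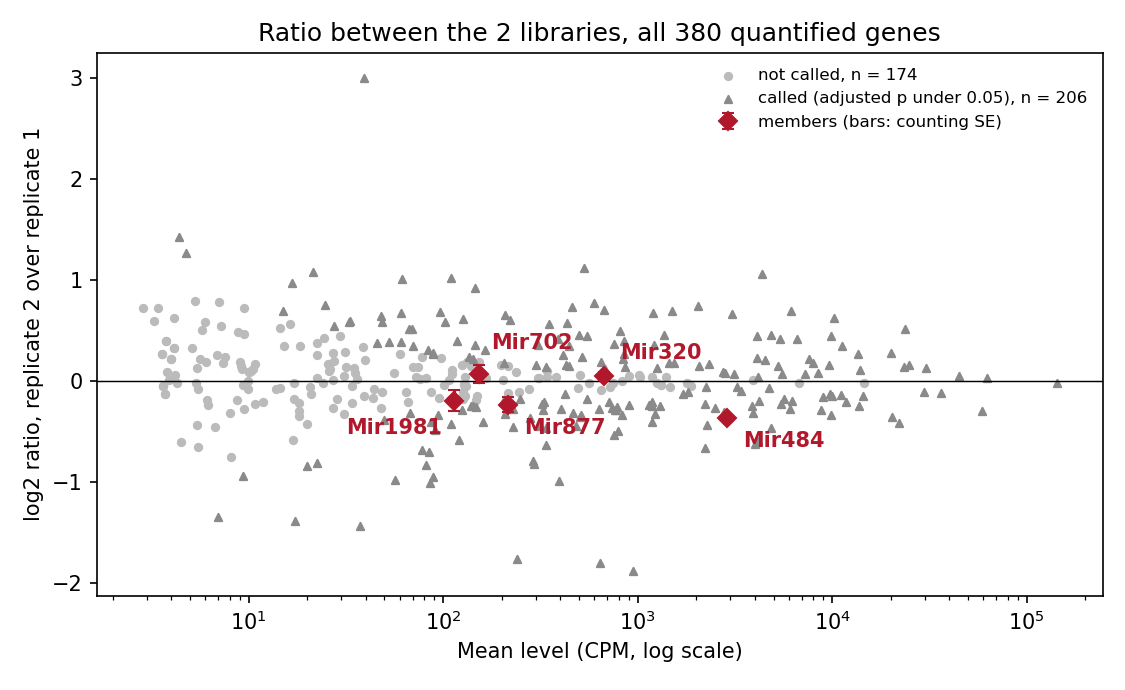
Log2 ratio of replicate 2 over replicate 1 against mean level in CPM (log axis) for the 380 quantified genes, with called genes as triangles and the members as diamonds with counting SE. The members lie between -0.36 and 0.07, within the spread of the other genes.

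The ratios of the intron-spanning hairpins, members included, ranged from -0.94 to 0.09 on the log2 scale. Of the 8 quantified intron-spanning genes 2 were called lower in replicate 2 and none higher, against 27.1% of all quantified genes called lower, and the median log2 ratio was -0.17. Without the members 1 of 5 was called lower. Besides Mir877 the called gene was Mir3062 in an intron of Pfas, named after its values were seen, with 57 counts in replicate 1 and 18 in replicate 2 (log2 ratio -0.94 ± 0.39, exact test adjusted p = 0.0317). Of the 4 other non-canonical microRNAs found, Mir1983 was called higher in replicate 2 (0.21 ± 0.02), Mir451a lower (-0.81 ± 0.07), and Mir3102 and Mir1224 were not called.

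The hairpins of the 4 members with a sequence were of ordinary predicted stability and were richer in G and C than most. GC content was 53.7% for Mir1981, 58.2% for Mir484, 61.2% for Mir877 and 65.1% for Mir702, against a median of 52.3% over the 866 hairpins matched to a listed gene. The median over the 23 intron-spanning hairpins with a sequence was 60.5%. The folding energy predicted by RNAfold was -30.3 kcal/mol for Mir1981, -24.6 for Mir484, -36.5 for Mir877 and -47.4 for Mir702. Per base this was -0.37, -0.37, -0.43 and -0.43 kcal/mol, on either side of the median of -0.41 over the matched hairpins. None of the 4 hairpins shared 20 consecutive bases, on either strand, with another hairpin of the table, as 111 of the 866 did. Reads that align to several places were assigned to no gene, and sharing with the rest of the genome was not examined.

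**Figure D5:**
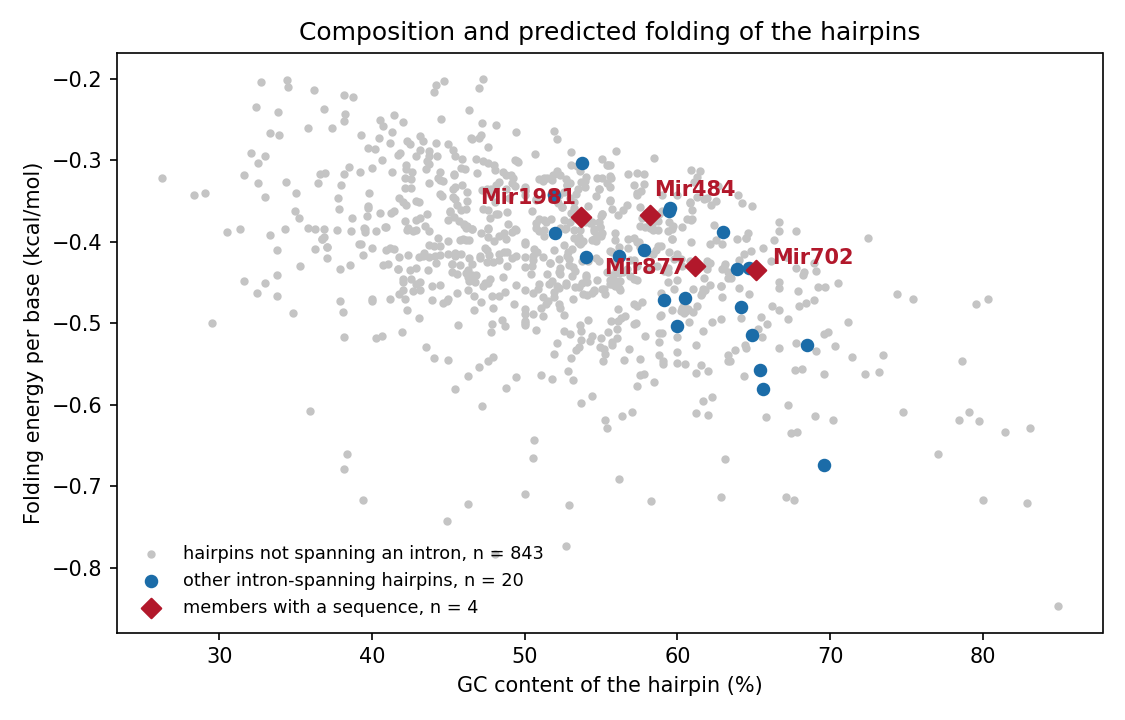
Predicted folding energy per base in kcal/mol against GC content in percent for the 866 hairpins matched to a listed gene, with the 20 other intron-spanning hairpins in blue and the 4 members with a sequence in red. The members lie between 53.7 and 65.1% GC and between -0.37 and -0.43 kcal/mol per base.

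No read lay on the strand opposite to any of the 5 members in either library. Of 8 brain microRNAs used as markers, 7 were found and all 7 had reads in both libraries, 5 of them quantified. They summed to 8084 and 7120 CPM, mostly from Mir137, the highest (4225 and 3564 CPM), and Mir153 (3512 and 3286 CPM). The 3 Mir124a copies and Mir9-2 had only 1.07 to 14.9 CPM in single libraries. The Mir9-2 hairpin shared 20 consecutive bases with 3 other hairpins, and reads with several alignments were counted for no gene. The same may hold for the Mir124a copies. Their values and the brain sum may thus be too low, and they do not show that these microRNAs were scarce. Markers of other cell types were present too: Mir126a of endothelial cells at 23434 and 26243 CPM, the 3 mesenchymal markers found at 11443 and 17759 CPM, the 3 erythroid markers at 413 and 271 CPM, the 3 leukocyte markers found at 566 and 686 CPM, and Mir122 of liver at 8.64 and 69.5 CPM. Within the erythroid list Mir451a was called lower in replicate 2, while Mir486 was called higher (13.8 and 29.2 CPM) and Mir144 was not called (25.7 and 29.6 CPM). Within the leukocyte list Mir155 was called lower (265 and 235 CPM), and Mir150 and Mir223 were called higher. Of the 5 quantified brain markers 3 were called lower in replicate 2 and none higher. The 3 mesenchymal markers found, Mir126a and Mir122 were all called higher. Over all quantified genes 27.1% were called lower and 27.1% higher. The marker sums differed between the libraries in both directions, and their part in the members' levels was not tested. In a bulk sample, fewer cells of a type and less RNA per cell cannot be told apart.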

How the data were processed

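Small RNA from E12.5 mouse midbrain was sequenced in 2 libraries. The deposited files hold raw counts, whole numbers of reads per microRNA gene, which the authors derived from alignments to mm10 with annotation release M4, per the deposited read-me files. The tool for alignment and counting is not given in the sources used here. Own-strand counts were used, which held 97.6% and 97.5% of the reads assigned on either strand. Rows that name no gene (unmapped, multimapping or outside the listed genes) took 56.9% and 58.2% of reads and stayed out of totals and tests.

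Symbols, positions and introns were taken from GENCODE M21 (GRCm38, the assembly of mm10), in which 1894 of 1973 identifiers were found. Sequences came from RefSeq (GRCm38.p6) and were folded with RNAfold 2.7.2. CPM is the count divided by the library's assigned total. Fisher's exact tests and 95% Wilson intervals used scipy 1.17.1, and scaling alternatives used edgeR 4.0.16 and DESeq2 1.42.0. edgeR's quasi-likelihood test had no contrast to test, since the libraries form 1 group. Intervals and exact tests cover counting error only, since they hold no term for the spread between libraries. PCR reads are not independent molecules, so the intervals may be too narrow and the p-values too small. The spread between the pools may be technical.

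The members and lists were chosen with earlier results of these data known. Named are the members, the other non-canonical microRNAs of the list, the 2 quantified genes nearest in level to each member, and the 5 highest genes of the intron-spanning and start-site classes. Any other gene is said to be named after its values were seen, apart from cell type markers and Mir99a, the most abundant gene, which was left out of the total in a check of the scaling.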

Additional observations from a re-analysis of the deposited data

Results flagged for a closer look

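Reads on the strand opposite to the annotated gene, which the counts above leave out, were searched for at part of the genes named. These were the members, the other non-canonical microRNAs, the genes nearest in level to each member, and the 5 highest intron-spanning and start-site genes. Such reads were above 3 in both libraries at 2 of the genes searched. At Mir708 there were 17 in replicate 1 and 11 in replicate 2, and at Mir126a 12 in replicate 1 and 7 in replicate 2. Both numbers are small beside the own-strand counts of those genes, and none of the 5 members had such a read.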

How the results depend on the processing

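With 2 libraries of unequal depth, ratios of the mirtrons rest on 299 to 1073 counts, and most other intron-spanning hairpins lie at the level of a few reads. The number of members called stayed at 2 with TMM factors, with reads on either strand and with no minimum count, and was 3 with DESeq2 size factors, which added Mir1981. Over 4 alternatives for each of the 5 members' ratios, 19 of 20 kept direction and side of the threshold. Part of this was fixed in advance, since dropping the minimum count cannot change a ratio. With no opposite-strand read at any member, using reads on either strand changed only the library totals. Only the DESeq2 and TMM factors rescaled the libraries. The members' sum of 4031 CPM became 4704 CPM with Mir99a left out of the total, 1712 per 1000000 of all reads of the library, and 1152 CPM without Mir484, a choice made after seeing the data. From 1 library alone it was 3664 to 4397 CPM. The intron-spanning sum of 795 CPM became 12177 CPM when ends within 30 bases counted, through Mirlet7i (11259 CPM, named after its values were seen), 629 CPM within 3 bases and 314 CPM without the members (chosen after seeing the data); single libraries gave 766 to 824 CPM. The start-site sum of 61254 CPM became 4231 CPM within 30 bases and 150916 CPM within 300 bases. It was 6771 CPM for starts at or before the hairpin and 168888 CPM for starts on either strand within 500 bases, both chosen after seeing the data, and 58398 to 64110 CPM in single libraries. The other non-canonical microRNAs summed to 4957 CPM, most of it from Mir1983 (4535 CPM), and to 4708 to 5206 CPM in single libraries. The sums kept within 1 SD under the other scalings and with both strands. For the DESeq2 and TMM factors this was largely fixed in advance. They shift the 2 libraries in opposite directions and leave the mean nearly unchanged, for the members at 4035 and 4032 CPM. No paired analysis was possible because the libraries form 1 group.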
